A study of Homo sapiens with 8 samples.

Results

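Zinc finger genes that lie outside chromosome 19 were followed through 3 comparisons of K-562 cells, a human leukaemia cell line established in culture. A gene was included if its symbol was ZNF followed by a number alone and GENCODE 29 placed it on any other chromosome. Of 238 such genes in the annotation, 12 were listed in at least 1 of the authors' 3 gene tables, which together list 1221 genes. The other 226 have no value here, which does not show that they matched the controls. The 12 genes gave 14 entries, 6 listed as higher and 8 as lower, spread over 9 chromosomes.

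The altered groups were TASOR KO cells, TASOR KO cells that express a FLAG-TASOR transgene, and parental wild-type cells that express a FLAG-TASOR2 transgene. Each was compared with parental wild-type cells given a negative sgRNA, with 2 libraries of ribosomal RNA-depleted total RNA per group. Per the labels' protocols, CRISPR/Cas9-edited cells were sorted as single colonies, and cells then received lentivirus with an empty puromycin resistance vector or a FLAG-tagged transgene. The labels give a guide for the controls and none for the FLAG-TASOR2 cells, so guide and transgene cannot be told apart there. The sources used here do not say whether both libraries of a group stem from separate clones, and p-values then measure only the spread between these libraries.

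C2H2 zinc finger proteins bind DNA through repeated fingers, each folded around a zinc ion by a pair of cysteines and a pair of histidines. Many also carry a KRAB domain, which recruits TRIM28 and the histone methyltransferase SETDB1 and so silences transposable elements. The human silencing hub (HUSH), of which TASOR is a subunit and TASOR2 a paralog of that subunit, also acts through H3K9 methylation, and zinc finger genes are themselves among the genes known to carry this mark. Many of these genes lie in tandem clusters on chromosome 19.

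The promoter windows of 5 of the genes are shown first, chosen for their direction and position in the tables and not for the strength of their p-values. ZNF32 and ZNF487 are near neighbours on chromosome 10 that were listed in opposite directions in the knockout. ZNF81 was listed as lower in 2 tables, and ZNF467 and ZNF605 had the lowest and highest log2 fold change of the 12. Each window runs from 250 bases before the RefSeq start site (GRCh38.p14) to 50 bases after it, 5′ to 3′ on the gene's own strand. Where RefSeq gives several starts, the one nearest to the GENCODE gene start was taken. Capitals mark matches, on either strand, to the GC box GGGCGG, the ETS core CCGGAAG, the TATA box TATAAA or the CCAAT box CCAAT.
ZNF32 (chr10:43648832-43649131, minus strand): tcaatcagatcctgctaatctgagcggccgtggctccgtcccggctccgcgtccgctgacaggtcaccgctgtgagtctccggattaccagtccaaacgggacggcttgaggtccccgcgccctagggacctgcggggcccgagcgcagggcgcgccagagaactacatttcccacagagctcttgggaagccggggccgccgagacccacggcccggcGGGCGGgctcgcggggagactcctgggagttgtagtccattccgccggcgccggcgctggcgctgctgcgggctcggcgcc
ZNF487 (chr10:43436598-43436897, plus strand): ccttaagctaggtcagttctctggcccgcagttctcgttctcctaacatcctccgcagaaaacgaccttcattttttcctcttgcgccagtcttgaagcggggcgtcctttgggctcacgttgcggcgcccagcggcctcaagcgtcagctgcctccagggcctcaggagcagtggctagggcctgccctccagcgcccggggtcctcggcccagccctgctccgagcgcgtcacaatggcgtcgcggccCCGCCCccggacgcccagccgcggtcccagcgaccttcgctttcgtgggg
ZNF81 (chrX:47836652-47836951, plus strand): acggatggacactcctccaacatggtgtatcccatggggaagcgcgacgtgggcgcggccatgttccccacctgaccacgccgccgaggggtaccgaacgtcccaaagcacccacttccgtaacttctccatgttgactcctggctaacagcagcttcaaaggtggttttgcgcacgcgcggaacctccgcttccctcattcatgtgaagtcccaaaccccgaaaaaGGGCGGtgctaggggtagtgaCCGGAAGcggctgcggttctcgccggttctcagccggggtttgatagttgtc
ZNF467 (chr7:149773539-149773838, minus strand): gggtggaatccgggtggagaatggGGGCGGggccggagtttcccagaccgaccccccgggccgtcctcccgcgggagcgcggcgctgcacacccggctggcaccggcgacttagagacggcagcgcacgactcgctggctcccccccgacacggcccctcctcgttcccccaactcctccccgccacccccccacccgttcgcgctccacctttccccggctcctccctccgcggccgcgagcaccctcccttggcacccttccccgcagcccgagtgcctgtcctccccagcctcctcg
ZNF605 (chr12:132956257-132956556, minus strand): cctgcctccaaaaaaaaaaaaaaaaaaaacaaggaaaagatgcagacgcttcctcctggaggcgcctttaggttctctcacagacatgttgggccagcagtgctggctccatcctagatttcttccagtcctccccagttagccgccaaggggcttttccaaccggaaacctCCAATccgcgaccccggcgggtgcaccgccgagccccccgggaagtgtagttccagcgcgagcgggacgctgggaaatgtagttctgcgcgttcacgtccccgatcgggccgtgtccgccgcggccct

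A GC box stood in the windows of ZNF32, ZNF487, ZNF81 and ZNF467, and ZNF605 had a CCAAT box in place of one. Only ZNF81 of these 5 windows also held the ETS core. Windows were found for 10 of the 12 genes, 13 windows in all, since ZNF32 and ZNF487 have several starts. The ETS core was present for 5 of the 10 genes (ZNF19, ZNF362, ZNF487, ZNF502 and ZNF81), and for ZNF487 only at another of its starts. It occurred in 31.0% of the 258 windows of ZNF-number genes outside chromosome 19 and in 10.3% of all 35116 windows. The GC box was present for 6 of the 10 genes, against 58.1% of the family windows and 45.0% of all windows. A CCAAT box was present for 4 genes, against 40.3% and 34.6% of those windows. The TATA box was found for ZNF711 alone, against 5.81% of family windows and 11.5% of all. These shares count windows and not genes. By window, the GC box stood in 9 of the 13, the ETS core in 5, the CCAAT box in 4 and the TATA box in 1. Matches of 1 motif may overlap each other and were counted once per window. CpG dinucleotides had a median of 31 in the 13 windows, against 24 in the family outside chromosome 19 and 14 in all windows. These matches describe the letters of the windows and carry no statement about binding.

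The tables give no value per library, so only group means can be shown. The deposited log2 fold change and log2 mean expression (log2 CPM, read counts scaled to library size) together imply a mean for each group if both groups weigh equally. The control mean implied by different tables for the same gene differed by a median of 1.05-fold to 1.10-fold over 58 to 99 shared genes, and by at most 1.29-fold for 90% of them. CPM are not corrected for gene length, so the means serve to compare groups for 1 gene and not genes with each other. A fold change is altered cells over controls. Its approximate standard error (SE) was taken from the authors' F score, and the 95% interval follows from that SE. To be listed, a gene needed a log2 CPM above 1, a log2 fold change beyond 1 in either direction and an unadjusted p below 0.05. The lowest adjusted p of any of the 12 genes was 0.213, so 0 passed 0.05, and all are called listed as higher or lower in place of changed. Over all listed genes the share past 0.05 was 0.373% in the knockout table, 0% in the FLAG-TASOR table and 0.566% in the FLAG-TASOR2 table. At an unadjusted p below 0.05, by the same deposited test, all 14 entries pass because the tables required it.

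The knockout was first looked up at the RNA of its target, which cannot show whether the protein was lost. TASOR had an implied mean of 39.0 CPM in TASOR KO cells and 82.4 CPM in controls. On the log2 scale, the authors' deposited table for TASOR KO cells puts TASOR at -1.08 (approximate SE 0.23, adjusted p 1.00), and that for FLAG-TASOR2 cells puts TASOR2 at 2.26 (approximate SE 0.27, adjusted p 0.125). With FLAG-TASOR, TASOR was not listed, so the expression of that transgene could not be checked. The tables hold no levels of unlisted genes, so the cell line label could not be checked against its markers. Of 12 K-562 markers, HBE1 was listed as higher with FLAG-TASOR and HBZ with FLAG-TASOR2. Of 10 markers of other blood lineages, PTPRC was listed as higher and ITGAM as lower in the knockout, and ITGAM as lower in both other tables. PTPRC had a log2 mean CPM of 6.64 over knockout and control cells, with a log2 fold change of 1.70. Its listing is therefore not read as a sign of another lineage. Over all annotated protein-coding genes, 1.06%, 1.05% and 3.62% were listed in the knockout, FLAG-TASOR and FLAG-TASOR2 tables. Counts this small are therefore no result about the marker lists. The part of these markers in the results below was not tested.

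**Figure D1:**
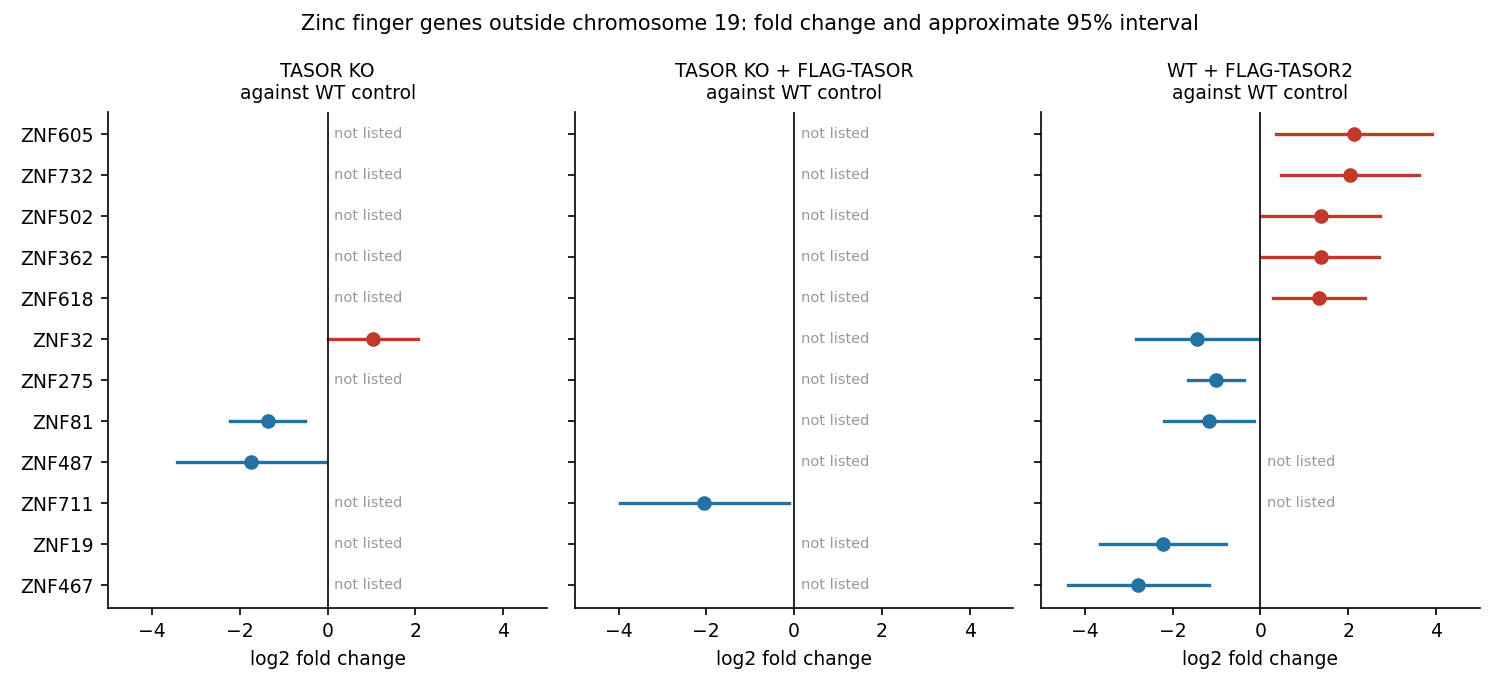
Log2 fold change over the wild-type controls (x axis) of the 12 zinc finger genes outside chromosome 19 (rows) in the authors' 3 deposited tables (panels). Points are the deposited values, bars the approximate 95% intervals, red higher and blue lower than control. Of the 14 entries 6 lie right of 0 and 8 left, and ZNF32 lies on opposite sides in the knockout (1.03) and FLAG-TASOR2 (-1.43) panels.

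The knockout comparison asks which zinc finger genes differ between TASOR KO cells and the controls. Outside chromosome 19, the knockout table listed 3 genes, ZNF32 as higher and ZNF81 and ZNF487 as lower. The background was 51.1% higher and 48.9% lower among all 268 listed genes, and 1.92% of the 13992 genes that the authors tested were listed at all. The median log2 fold change of the 3 genes was -1.37, the value of ZNF81, against 1.01 over all genes listed in the authors' deposited table. Listing leaves out changes smaller than 1, so with a near even split the sign of such a median follows the direction with more genes. The 2 medians are therefore no measure of a typical shift. The medians of the absolute log2 fold change were 1.37 and 2.00.

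ZNF81 encodes a KRAB zinc finger protein, and mutations of the gene have been linked to X-linked intellectual disability. Its implied mean was 8.95 CPM in TASOR KO cells and 23.2 CPM in wild-type controls. The authors' deposited table puts its log2 fold change at -1.37 (approximate SE 0.34, 95% interval -2.24 to -0.51), with p 0.00903 and adjusted p 1.00. It was the only 1 of the 3 with an unadjusted p below 0.01, a level that 93 of the 268 listed genes reached (34.7%). The gene spans 47836902 to 48002561 on chromosome X (GRCh38, plus strand, 6 exons in its longest model). ZNF182 and ZNF630, also zinc finger genes, overlap it on the opposite strand by 27711 and 19206 bases. The sources used here do not say whether reads were counted by strand, so those in these overlaps cannot be assigned with certainty.

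ZNF487 and ZNF32 lie 0.161 Mb apart on chromosome 10 and were each other's only listed neighbour within 1 Mb in the knockout. ZNF487 encodes a KRAB protein whose longest annotated coding sequence, of 208 residues, holds 0 matches to the C2H2 finger pattern. The implied mean was 1.25 CPM in TASOR KO cells and 4.20 CPM in controls. The authors' deposited table lists it as lower, with a log2 value of -1.75 (approximate SE 0.67, 95% interval -3.43 to -0.06, p 0.0447, adjusted p 1.00). Its log2 mean CPM of 1.45 in the authors' deposited table lies below the median of 2.79 over all listed genes.

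ZNF32, a short gene of 4998 bases with 6 fingers, had an implied mean of 16.0 CPM in TASOR KO cells and 7.86 CPM in controls. Its log2 fold change in the authors' deposited table was 1.03 (approximate SE 0.41, 95% interval 0.0018 to 2.05, p 0.0497, adjusted p 1.00). That p lies next to the listing limit of 0.05. ZNF32 (43643859 to 43648856, minus strand) is covered along its whole length by the antisense gene ZNF32-AS3, and ZNF32-AS1 and ZNF32-AS2 lie within it. Reads of the gene and of its antisense partners cannot be told apart without strand.

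The second comparison asks how knockout cells expressing FLAG-TASOR differ from the same controls. Only ZNF711 was listed, as lower, in a table where 32.6% of all 261 genes were higher and 67.4% lower. ZNF711 belongs to the family of ZFX and ZFY, and mutations of it cause X-linked intellectual disability. It averaged an implied 2.32 CPM in the FLAG-TASOR cells and 9.58 CPM in controls. The authors' deposited table puts the log2 fold change at -2.05 (approximate SE 0.76, 95% interval -3.97 to -0.12, p 0.0409, adjusted p 0.999). ZNF711 (chromosome X, 85244032 to 85273362, plus strand) had 0 listed neighbours within 1 Mb and no annotated gene overlapping it. ZNF32, ZNF81 and ZNF487 were not in this table, and with no value for them there, no difference between knockout cells with and without FLAG-TASOR was tested.

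**Figure D2:**
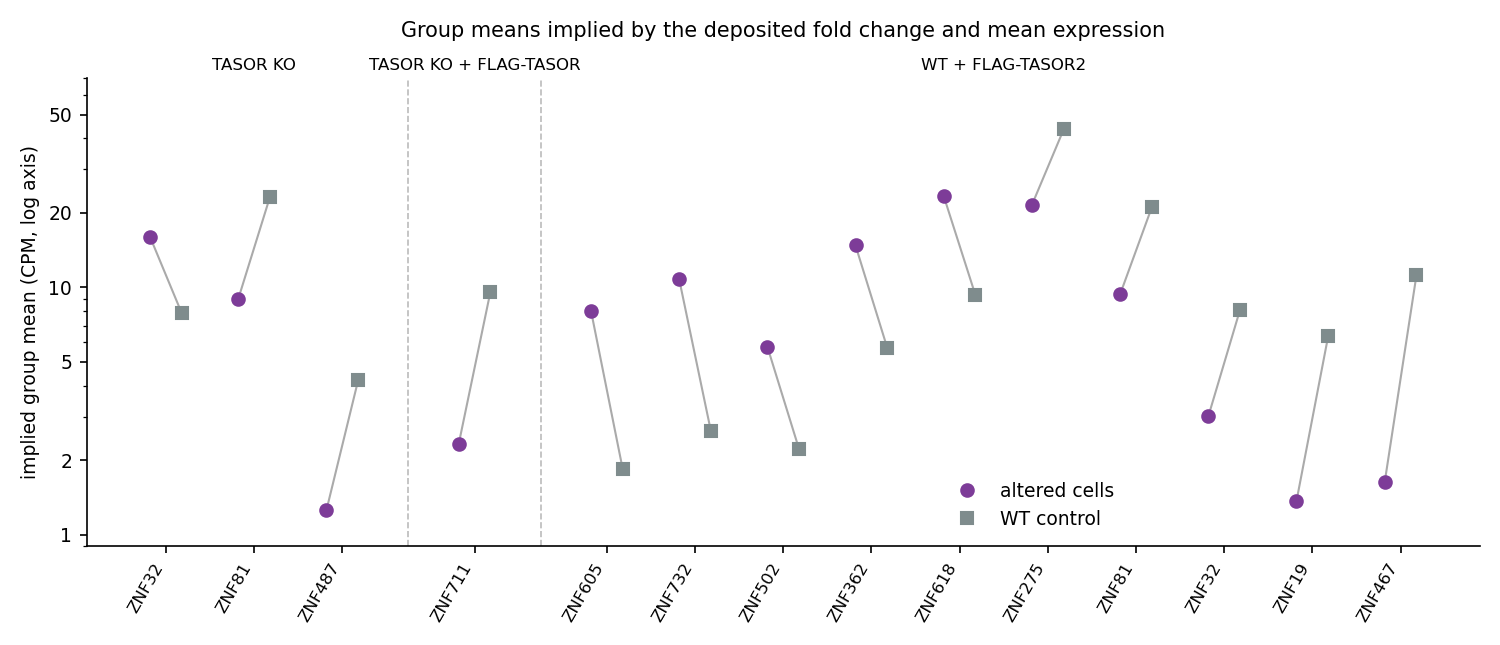
Implied mean expression in CPM (log axis) for each of the 14 entries, with altered cells as circles on the left and wild-type controls as squares on the right of each pair, grouped by table. ZNF81 and ZNF32 appear in 2 tables with nearly the same control mean (23.2 and 21.1 CPM for ZNF81, 7.86 and 8.11 CPM for ZNF32).

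The third comparison asks how wild-type cells expressing FLAG-TASOR2 differ from the controls, and it listed 10 of the 12 genes, in the longest table, which holds 72.4% of all 1221 listed genes. Of the 10, ZNF605, ZNF732, ZNF502, ZNF362 and ZNF618 were higher, and ZNF467, ZNF19, ZNF32, ZNF81 and ZNF275 were lower. The even split of 5 and 5 stood beside 40.5% higher and 59.5% lower among the 884 listed genes, and 6.31% of the 14001 genes tested were listed. The median log2 fold change of the 10 genes, 0.16 against -1.196 over all genes of the authors' deposited table, is the midpoint between the groups of higher and lower genes and a value that no listed gene can have. The median absolute log2 fold change was 1.41 for the 10 genes, against 1.83 over the table. An unadjusted p below 0.01 was reached by 3 of the 10 (30.0%), against 387 of all 884 listed genes (43.8%). Those 3, ZNF467, ZNF275 and ZNF19, were all listed as lower, as were 243 of those 387 genes.

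ZNF605, which encodes a KRAB protein with 17 fingers, had the highest fold change of the 5 higher genes. The implied group means were 8.06 CPM in FLAG-TASOR2 cells and 1.84 CPM in controls. The log2 fold change in the authors' deposited table was 2.13 (approximate SE 0.73, 95% interval 0.35 to 3.91, p 0.0265, adjusted p 0.331). The annotation places all but the first 2 bases of ZNF605 (chromosome 12, 132918308 to 132956306, minus strand) within a model of CHFR, a checkpoint gene on the same strand, which was not listed. Of the 50-base words of its longest transcript, 4.20% also occur in transcripts of other genes.

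ZNF732, another KRAB gene, lies near the end of chromosome 4 (270675 to 305321, minus strand). It had an implied mean of 10.8 CPM in FLAG-TASOR2 cells and 2.62 CPM in controls. The authors' deposited table puts its log2 fold change at 2.04 (approximate SE 0.64, 95% interval 0.47 to 3.62, p 0.0192, adjusted p 0.302). Words shared with other genes made up 4.62% of its transcript, most of them with the neighbouring paralog ZNF721, which was not listed. The share of its reads that this affects is not known, so its counts are uncertain by an unknown amount.

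The remaining higher genes had smaller fold changes. ZNF618 encodes a binding partner of UHRF2, a reader of hydroxymethylated DNA. It averaged an implied 23.4 CPM in FLAG-TASOR2 cells and 9.29 CPM in controls, a log2 change that the authors' deposited table puts at 1.33 (approximate SE 0.43, p 0.0210). ZNF362 had 14.8 CPM in FLAG-TASOR2 cells and 5.69 CPM in controls, which the authors' deposited table gives as 1.38 on the log2 scale (approximate SE 0.55, p 0.0455). ZNF502 had 5.76 CPM in FLAG-TASOR2 cells and 2.21 CPM in controls, also 1.38 in the authors' deposited table (approximate SE 0.56, p 0.0478). The adjusted p of these 3 genes in the authors' deposited table lay between 0.312 and 0.404. They lie on 3 chromosomes, at 113876282 to 114056591 of chromosome 9 (ZNF618), 33256545 to 33300719 of chromosome 1 (ZNF362) and 44712643 to 44723831 of chromosome 3 (ZNF502).

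ZNF467 had the lowest fold change of all 14 entries. In the mouse, its counterpart favours fat cell over bone cell formation. The implied mean was 1.63 CPM in FLAG-TASOR2 cells and 11.2 CPM in controls. Its log2 fold change in the authors' deposited table was -2.78 (approximate SE 0.66, 95% interval -4.39 to -1.17), with p 0.00553 and adjusted p 0.213. No annotated gene overlaps ZNF467 (chromosome 7, 149764182 to 149773479, minus strand), and 0 of its 50-base words occur in other genes.

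ZNF19, a KRAB gene, had 1.37 CPM in FLAG-TASOR2 cells and 6.36 CPM in controls. Its log2 fold change in the authors' deposited table was -2.22 (approximate SE 0.59, 95% interval -3.66 to -0.78, p 0.00924, adjusted p 0.244). The gene model (chromosome 16, 71464555 to 71565089, minus strand) overlaps 6 other annotated genes, among them CHST4 on the opposite strand and the protein-coding AC010547.4 on the same strand. The RefSeq start used for the ZNF19 promoter window lies 75765 bases inside this model. CHST4 lies wholly before that start, so it overlaps only the longer model. AC010547.4 shares 13.1% of the 50-base words of the ZNF19 transcript, so the authors' counting could have split reads between them.

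ZNF275 and ZNF81 are both on chromosome X and both were lower. ZNF275 had 21.5 CPM in FLAG-TASOR2 cells and 43.5 CPM in controls. Its log2 fold change in the authors' deposited table was -1.01 (approximate SE 0.26, 95% interval -1.66 to -0.37, p 0.00831, adjusted p 0.235), just past the listing limit of 1. ZNF81 had 9.37 CPM in FLAG-TASOR2 cells and 21.1 CPM in controls, with -1.17 in the authors' deposited table (approximate SE 0.42, p 0.0316, adjusted p 0.355). On X as a whole, 67 of 80 listed genes were lower in this comparison (83.8%), 29 of 30 with FLAG-TASOR (96.7%) and 15 of 21 in the knockout (71.4%). All 4 entries of zinc finger genes on X across the tables were lower. On the other chromosomes the entries were 5 higher and 3 lower with FLAG-TASOR2, and 1 higher and 1 lower in the knockout.

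ZNF32 had an implied mean of 3.003 CPM in FLAG-TASOR2 cells and 8.11 CPM in controls. Its log2 fold change in the authors' deposited table was -1.43 (approximate SE 0.57, 95% interval -2.84 to -0.03, p 0.0469, adjusted p 0.400). It was thus listed as lower here and as higher in the knockout, with 16.0 CPM in TASOR KO cells, while ZNF81 was lower in both. Both comparisons use the same control libraries, and the difference between the altered groups was not tested because the tables hold no value per library. Of the 12 genes, 0 were listed in all 3 tables, 2 in 2 and 10 in 1. Over all 1221 listed genes, 2.29% were in 3 tables, 11.1% in 2 and 86.6% in 1, so this spread was close to that of listed genes in general.

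**Figure D3:**
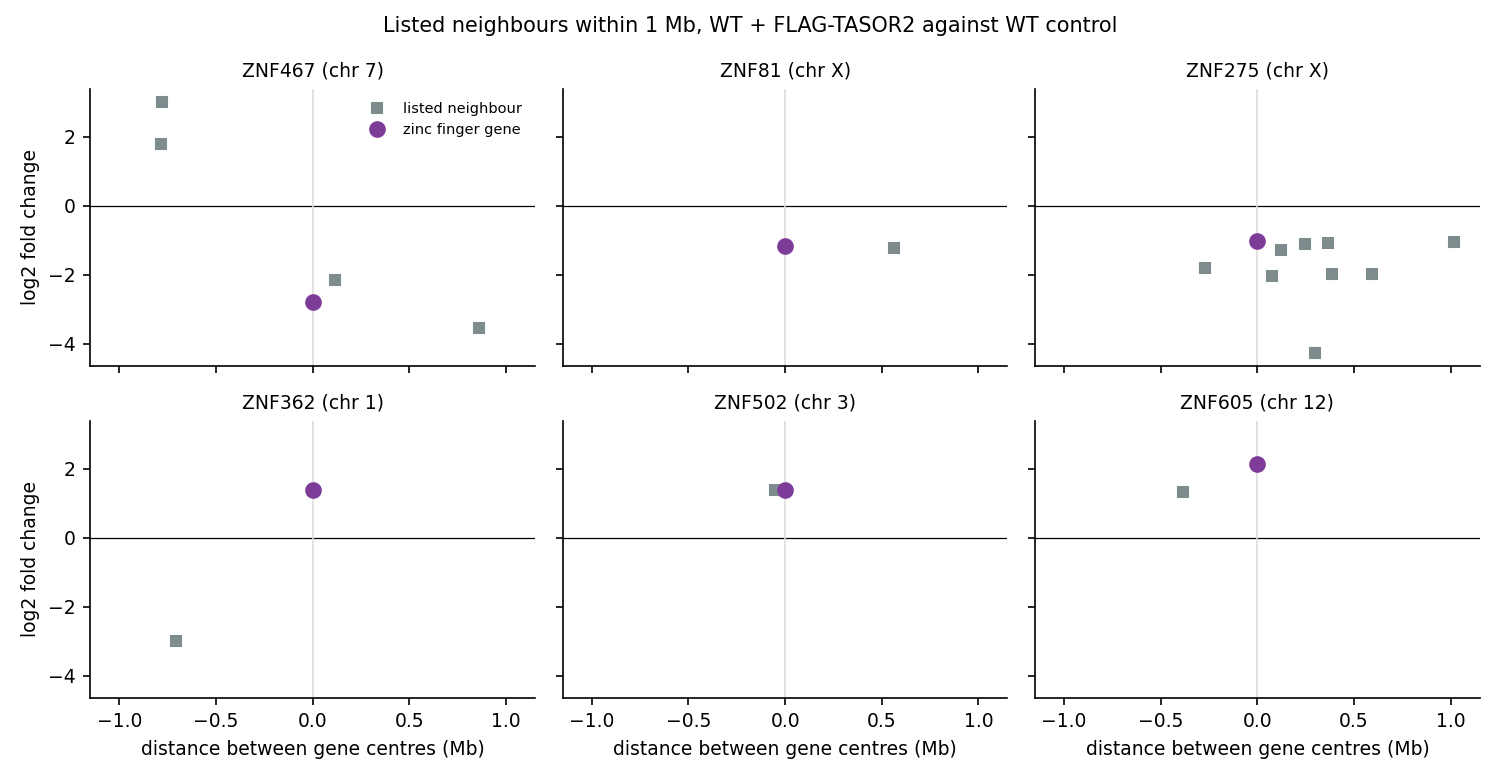
Log2 fold change (y axis) of listed genes within 1 Mb of 6 zinc finger genes with FLAG-TASOR2 against wild-type controls, by distance between gene centres in Mb (x axis). Circles are the zinc finger genes and squares their listed neighbours. All 9 neighbours of ZNF275 lie below 0, as did 67 of the 80 listed genes on chromosome X in this comparison.

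Around the 10 genes of the FLAG-TASOR2 table, listed neighbours were few except next to ZNF275. Within 1 Mb of ZNF275 (chromosome X, 153334147 to 153360110), 9 of 52 annotated protein-coding genes were listed, and 9 of 9 were lower. Over all annotated protein-coding genes 3.62% were listed, and of the 80 listed genes on X 67 were lower (83.8%). The 9 neighbours include ZFP92, another zinc finger gene, with -2.03 (approximate SE 0.49), and DUSP9, a MAP kinase phosphatase, with -4.27 (approximate SE 0.74) in the authors' deposited table. ZNF467 had 4 listed neighbours. The small Y RNA genes RNY1 and RNY3 were higher at 3.02 and 1.78, and ATP6V0E2 and GIMAP6 lower at -2.14 and -3.55, in the authors' deposited table. ZNF81 had 1 listed neighbour, FTSJ1, lower at -1.22 in the authors' deposited table. ZNF362, itself higher, had ZBTB8A, lower at -2.99 in the authors' deposited table. ZNF502 and ZNF605 each had 1 listed non-coding neighbour, both higher, and ZNF732, ZNF618, ZNF32 and ZNF19 had 0. None of the neighbours had an adjusted p below 0.05 (0 genes in the authors' deposited table), while all passed the unadjusted 0.05 that listing required.

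**Figure D4:**
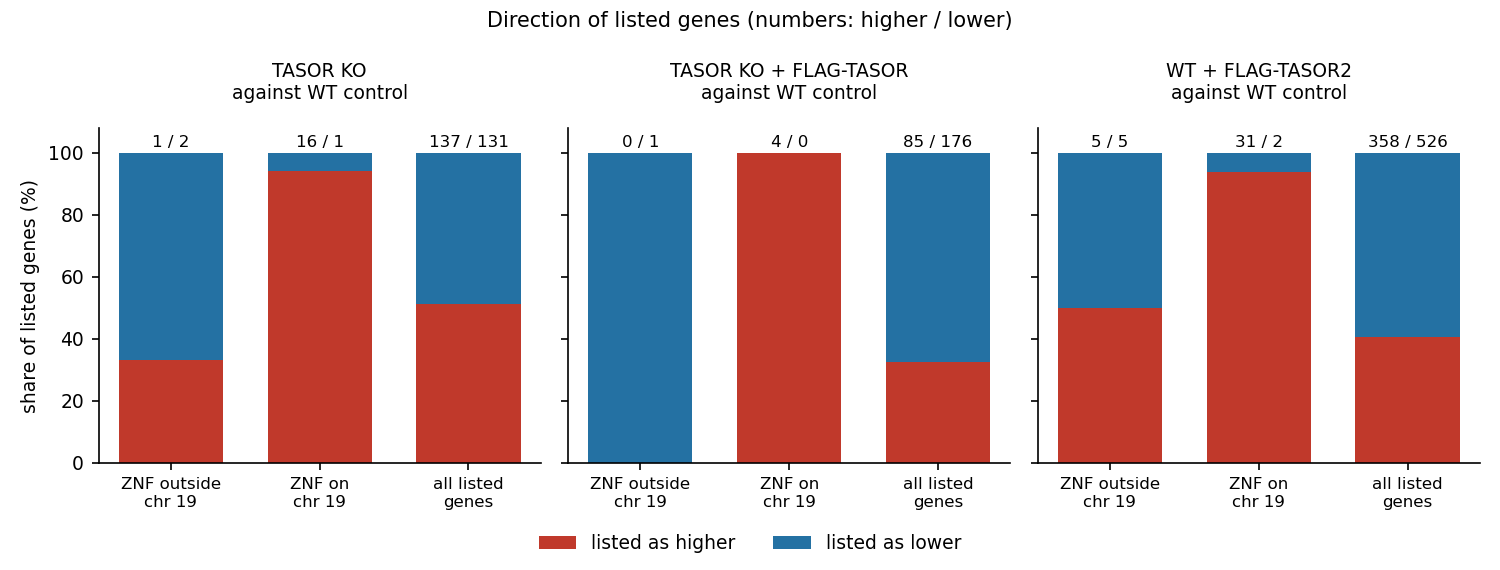
Share of listed genes that were higher (red) or lower (blue) than wild-type controls, in percent, for zinc finger genes outside chromosome 19, those on chromosome 19 and all listed genes, with numbers higher / lower above each bar. Outside chromosome 19 the numbers were 1 / 2, 0 / 1 and 5 / 5, on chromosome 19 they were 16 / 1, 4 / 0 and 31 / 2.

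Zinc finger genes on chromosome 19, chosen by the same form of symbol, give the nearest comparison. They were listed as 16 higher and 1 lower in the knockout, 4 and 0 with FLAG-TASOR and 31 and 2 with FLAG-TASOR2. Outside chromosome 19 the same counts were 1 and 2, 0 and 1, and 5 and 5. These counts are a description. Neighbouring genes on chromosome 19 are not independent, the 3 tables share controls, and the difference between the chromosomes was not tested.

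The share of annotated protein-coding genes that were listed shows how common these entries were. Outside chromosome 19, 1.28% of 235 protein-coding ZNF-number genes were listed in the knockout, 0.426% with FLAG-TASOR and 4.26% with FLAG-TASOR2. Over all 19951 annotated protein-coding genes the shares were 1.06%, 1.05% and 3.62%. With 3, 1 and 10 genes behind them, the shares outside chromosome 19 lie near this background and are no result about these genes. On chromosome 19 the shares of 240 such genes were 7.08%, 1.67% and 13.8%. The denominators include genes that these cells do not express, since the list of tested genes is not in the tables used here.

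**Figure D5:**
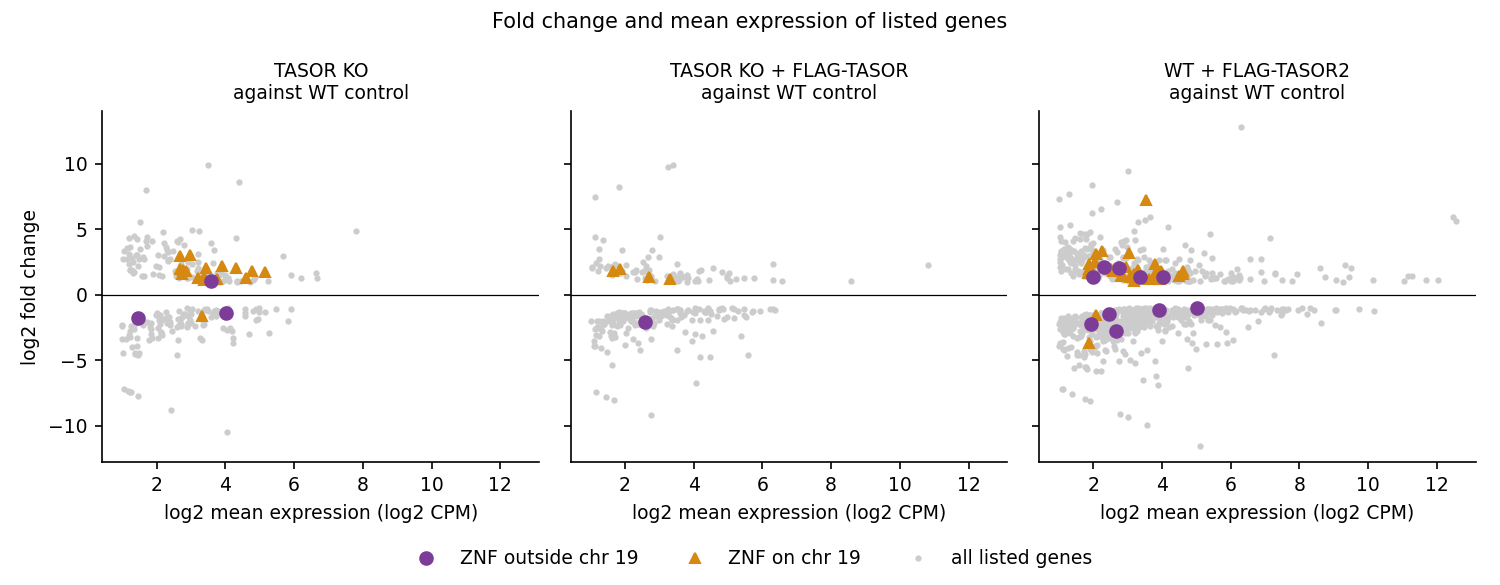
Log2 fold change (y axis) against log2 mean expression in log2 CPM (x axis) for all listed genes (grey dots), zinc finger genes on chromosome 19 (orange triangles) and those outside it (purple circles) in each table. With FLAG-TASOR2 the purple circles lie on both sides of 0, with log2 means between 1.95 and 5.02.

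The structure of the 12 genes was set beside that of the rest of the family, without a test. The longest coding sequence held a median of 10 C2H2 fingers, against 9 in the other 223 protein-coding ZNF-number genes outside chromosome 19 and 12 in the 240 on it. ZNF605 had 17, ZNF502 14, ZNF467 and ZNF81 12 each, ZNF275 and ZNF711 11 each, and ZNF19 and ZNF732 9 each. ZNF32 and ZNF362 had 6 each and ZNF618 4. Median exon numbers were 5, against 6 and 5 in those other sets, and median gene spans 36.3 kb, against 25.2 kb and 24.7 kb. ZNF618 was the longest of the 12 at 180.3 kb with 15 exons, and ZNF32 the shortest. The genes listed as higher with FLAG-TASOR2 had 4 to 17 fingers and those listed as lower 6 to 12.

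The partners through which zinc finger proteins and HUSH act were looked up in the same tables, where 1.06%, 1.05% and 3.62% of all protein-coding genes were listed. Of 10 genes of HUSH and its partners, TASOR was the only 1 listed in the knockout and TASOR2 the only 1 with FLAG-TASOR2. That list includes ZNF638, which would itself belong to the zinc finger genes described here and was not listed. Of 18 corepressor and H3K9 methylation genes, among them TRIM28, SETDB1 and the HP1 genes CBX1, CBX3 and CBX5, 0 were listed in any table. At those shares, few or no listed genes in lists of 10 and 18 is no result about them. Unlisted genes have no value, so their level is not known from these tables.

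Other zinc finger families, defined by symbol, held 135 annotated genes on any chromosome. In the knockout 1 was listed as higher and 1 as lower, 0 with FLAG-TASOR, and 5 higher and 4 lower with FLAG-TASOR2. Over all annotated protein-coding genes 1.06%, 1.05% and 3.62% were listed. Of all listed genes, 51.1% were higher in the knockout and 40.5% with FLAG-TASOR2. With so few genes, these counts are no result about the families. None of the listed genes of these families passed an adjusted p of 0.05 (0 genes), and all passed an unadjusted 0.05 by listing. Outside chromosome 19 these were ZBTB34 in the knockout at -1.61 (approximate SE 0.63), and with FLAG-TASOR2 ZBTB8A at -2.99 (0.76), ZFP92 at -2.03 (0.49), ZSCAN26 at -1.05 (0.43) and ZSCAN31 at 1.55 (0.43), all from the authors' deposited tables. ZSCAN26 and ZSCAN31 both lie on chromosome 6 and were listed in opposite directions. On chromosome 19, ZIK1 was higher at 3.30 (0.82) in the knockout and 4.10 (0.75) with FLAG-TASOR2 in the authors' deposited tables. Also on chromosome 19, the authors' deposited FLAG-TASOR2 table lists ZFP30 as lower at -2.45 (0.47). It lists ZSCAN1 at 3.07 (0.83), ZSCAN18 at 1.48 (0.50) and ZFP36 at 1.24 (0.44) as higher.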

How the data were processed

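RNA was sequenced from 8 K-562 libraries in 4 groups of 2. STAR 2.7.8, Salmon, edgeR, DESeq2 and the build hg38 are named, without roles, in the submitters' processing notes. Per the file headers, each gene of the authors' 3 deposited tables has a log2 fold change, its log2 mean CPM, the score F, and a p-value before and after adjustment. These values were used as deposited, and no model was refitted because the tables hold no value per library, which also leaves the depth unknown. For 2 tables the number of genes tested could be recovered, by dividing the top gene's adjusted p by its raw p.

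The SE is the size of the log2 fold change over the root of F, and the interval with the degrees of freedom that F and p imply. The recovery of the degrees of freedom and of the number of genes tested was tested on simulated data. For the implied group means the simulation only reversed its own formula, so it could not fail. Whether the deposited fold change and mean expression follow that formula was not tested by it. The SE and the coverage of the interval were not tested. Positions came from GENCODE 29 on GRCh38, matched by Ensembl identifier. C2H2 fingers were counted as cysteine, 2 to 4 residues, cysteine, 12 residues, histidine, 3 to 5 residues, histidine. Python 3.11.15, pandas 2.3.3 and scipy 1.17.1 were used. Genes were named if listed in 2 or 3 tables, or among the 10 highest or lowest per table, which covers all 12; TASOR and TASOR2 were added. Neighbours and members of other lists were named after their values were seen. The genes, lists and rules were chosen with earlier results of these data known.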

Additional observations from a re-analysis of the deposited data

How the results depend on the processing

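All 14 entries are protein-coding, so that restriction changed no count. Counting genes within 1 Mb as 1 locus, by direction, could not change a count either. ZNF32 and ZNF487 in the knockout are the only such pair, and they were listed in opposite directions. At a deposited adjusted p below 0.05, 0 genes were left in each table and direction. With an absolute log2 fold change above 1.5, the knockout kept 0 higher and 1 lower gene and FLAG-TASOR2 2 higher and 2 lower, while FLAG-TASOR still had 1 lower. At an unadjusted p below 0.01, these were 0 and 1, 0 and 3, and for FLAG-TASOR 0 lower. Among genes at or above the table's median expression, 1 higher and 1 lower gene were left in the knockout, 0 lower with FLAG-TASOR, and 2 higher and 2 lower with FLAG-TASOR2. With symbols that carry letters after the number, the knockout had 3 higher and 2 lower, and FLAG-TASOR2 6 higher and 5 lower. The higher genes of the knockout then include ZNF407-AS1, which is non-coding and not a zinc finger gene. Without chromosome 10 the knockout had 0 higher and 1 lower. Without chromosome X it had 1 lower (chosen after seeing the data), FLAG-TASOR 0 lower and FLAG-TASOR2 3 lower. With counts this small, a single gene decides them.

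Leaving out each replicate was not run, as the tables hold no values per library. No paired analysis was possible because the deposited columns carry no replicate. Depth per library is unknown, and genes with log2 mean expression at or below 1 are not in the tables.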

Other observations

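The symbol rule leaves out 2 listed genes outside chromosome 19 whose names carry letters. ZNF75A, a KRAB gene on chromosome 16 (3305406 to 3318852), was listed as higher in the knockout and with FLAG-TASOR2. Its implied mean was 27.1 CPM in TASOR KO cells and 13.4 CPM in controls, which the authors' deposited table gives as 1.02 on the log2 scale (approximate SE 0.38, p 0.0397, adjusted p 1.00). With FLAG-TASOR2 it was 32.0 CPM in the altered cells and 11.996 CPM in controls, with 1.42 in the authors' deposited table (approximate SE 0.32, p 0.00464, adjusted p 0.203). Both comparisons use the same controls. TIGD7, which overlaps ZNF75A by 324 bases on the opposite strand, was listed as higher with FLAG-TASOR2, where the authors' deposited table gives 2.39 (approximate SE 0.66).

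The antisense gene ZNF407-AS1 on chromosome 18 was listed as higher in the knockout at 1.33 (approximate SE 0.43, p 0.0244, adjusted p 1.00) in the authors' deposited table. Its implied mean was 11.7 CPM in TASOR KO cells and 4.65 CPM in controls. DIPK1C, 0.134 Mb away, was also higher, at 1.57 (approximate SE 0.43) in that authors' deposited table.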
